A study of Homo sapiens with 12 samples.

Results

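Chromatin and Mediator regulators were represented by 30 genes of the 1676 in a table deposited for SH-SY5Y cells that carried 1 of 4 tau constructs. They were chosen by symbol alone, with no measured value in the rule, from 12 families, among them Mediator, TAF, SMARC and ARID, CHD and INO80, HDAC, KDM, KMT with SETD, EZH and SUZ12, KAT with BRPF, ING and PHF, BRD, HMG, and SSRP1 with SUPT. The symbols matched 31 rows. The read-through transcript INO80B-WBP1 was left out, no row was a pseudogene, and all 30 genes that remained are protein coding in GENCODE 29.

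SH-SY5Y is an established human neuroblastoma line from a bone metastasis. The cells were transfected with Tau-S199E, in which serine is replaced by glutamate, Tau-K174Q, in which lysine is replaced by glutamine, Tau-K174Q-S199E, which carries both changes, or Tau-WT, the reference, with 3 libraries each. Glutamate is commonly used to mimic a phosphorylated serine and glutamine to mimic an acetylated lysine. All groups shared the cell line and the transfection, RNA was taken 24 h later, and libraries were made from 400 ng of RNA with a kit that reads the 3′ ends of polyadenylated transcripts. A transfected pool holds cells with and without the construct, and the labels do not say whether the replicates were separate cultures, so p-values here speak of variation among libraries that could be technical.

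The DNA of a human nucleus is wrapped around histones, and the proteins named here decide how open that packaging is and how it is read. Remodellers of the SWI/SNF, ISWI, CHD and INO80 families use ATP to slide, evict or exchange nucleosomes, other enzymes write or erase marks on histone tails, and readers with bromodomains, chromodomains or PHD fingers bind those marks. TFIID, SAGA and Mediator connect activators and chromatin to RNA polymerase II, FACT and DSIF help the polymerase through nucleosomes, and the high mobility group proteins HMGA, HMGB and HMGN bind DNA or nucleosomes and change their shape. In the developing brain, mutations in CHD2 are a known cause of epilepsy and mutations in CHD8 of autism.

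The label Mediator rests on a single gene. MED24 was the only Mediator subunit in the table, against 30 protein-coding genes with such a symbol in GENCODE 29. The table held 3 of 37 genes of the TAF family, 3 of 23 SMARC and ARID genes, 5 of 15 CHD and INO80 genes, 1 of 20 KDM genes, 1 of 22 of the KMT, SETD, EZH and SUZ12 group, 4 of 34 of the KAT, BRPF, ING and PHF group, 3 of 8 BRD genes, 6 of 11 HMG genes and 2 of 8 of the SSRP1 and SUPT group. None of the 11 HDAC genes was listed. PHF5A carries a matching symbol but is best known as a subunit of the SF3b splicing complex. GENCODE 29 has 227 coding genes with symbols of the rule, and those outside the table were not analysed here.

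The high mobility group genes held paralogues that moved in opposite directions, and the start regions of 2 such pairs are shown for comparison. The sequences are RefSeq windows on GRCh38.p14, each 300 bases long from 250 before to 50 after the annotated start, read 5′ to 3′ on the strand of the gene. HMGN1 (chr21:39349039-39349338 on the minus strand) and HMGB1 (chr13:30617548-30617847 on the minus strand) were higher with Tau-S199E than with Tau-WT. HMGN2 (chr1:26472190-26472489 on the plus strand) and HMGB3 (chrX:150983085-150983384 on the plus strand) were lower with Tau-S199E. Capitals mark matches on either strand to 6 short motifs known from promoters, which may overlap. They were CCAAT (the CCAAT box), GGGCGG (the GC box), TATAAA (the TATA box), CCGGAA (the ETS core), CACGTG (the E box) and TGACGTCA (the cAMP response element).
HMGN1: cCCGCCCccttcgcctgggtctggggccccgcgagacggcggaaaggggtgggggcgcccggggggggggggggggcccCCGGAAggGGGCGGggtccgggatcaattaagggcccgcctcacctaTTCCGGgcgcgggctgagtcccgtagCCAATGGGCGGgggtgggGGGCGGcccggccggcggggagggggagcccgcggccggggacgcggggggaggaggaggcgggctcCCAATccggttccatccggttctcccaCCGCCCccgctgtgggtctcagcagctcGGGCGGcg
HMGB1: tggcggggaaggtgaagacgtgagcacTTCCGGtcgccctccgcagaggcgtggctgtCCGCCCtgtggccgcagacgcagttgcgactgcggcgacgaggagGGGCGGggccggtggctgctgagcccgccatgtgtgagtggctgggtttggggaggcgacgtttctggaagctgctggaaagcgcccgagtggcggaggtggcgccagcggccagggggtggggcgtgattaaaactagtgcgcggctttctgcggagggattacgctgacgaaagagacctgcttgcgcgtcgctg
HMGN2: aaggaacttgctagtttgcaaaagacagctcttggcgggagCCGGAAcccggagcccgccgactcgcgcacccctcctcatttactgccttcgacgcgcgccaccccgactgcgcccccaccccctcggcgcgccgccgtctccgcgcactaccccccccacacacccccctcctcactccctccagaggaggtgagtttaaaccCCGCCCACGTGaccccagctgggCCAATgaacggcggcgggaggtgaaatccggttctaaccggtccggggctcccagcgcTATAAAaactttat
HMGB3: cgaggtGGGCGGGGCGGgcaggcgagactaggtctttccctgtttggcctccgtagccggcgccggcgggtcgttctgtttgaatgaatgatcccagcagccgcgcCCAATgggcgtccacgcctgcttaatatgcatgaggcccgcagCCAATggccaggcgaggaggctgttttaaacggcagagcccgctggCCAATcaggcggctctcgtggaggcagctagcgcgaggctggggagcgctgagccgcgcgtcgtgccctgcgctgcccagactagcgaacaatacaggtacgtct

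The HMGN1 window was 79.3% G and C, with 6 matches to GGGCGG, 2 to CCAAT and 2 to CCGGAA, and the HMGB1 window was 67.7% G and C, with 2 matches to GGGCGG, 1 to CCGGAA and 0 to CCAAT. The HMGN2 window held 1 match to each of the first 5 motifs, and the HMGB3 window 3 matches to CCAAT and 2 to GGGCGG. RefSeq windows were found for 26 of the 30 genes. GGGCGG was present in 73.1% of those 26, in 72.8% of the 1282 windows of genes in the table and in 55.1% of all 17391 windows. CCAAT was present in 38.5%, against 39.0% of the table and 36.3% of all windows, and CCGGAA in 42.3%, against 33.9% and 21.3%. TATAAA stood in 3.85%, against 5.15% of the table and 10.1% of all windows, and CACGTG in 11.5%, against 10.1% and 8.54%. TGACGTCA stood in 0%, against 3.12% and 2.39%. These matches describe letters in a window and do not show binding, and the RefSeq starts of HMGN1 and HMGB3 lie 559 and 2826 bases from the GENCODE gene starts.

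Each value below is a standardised expression value, the deviation of a library from the gene's own mean over the 12 libraries in units of that gene's SD, as the authors deposited it. It shows direction and consistency across libraries, not the level of a gene and not the size of a fold change, and depth is unknown. Differences between constructs are given in the same SD units with their standard error. They were tested with a linear model in limma, and p-values were adjusted by the Benjamini-Hochberg method over all 1676 genes at a threshold of 0.05. Every gene of the table has a deposited adjusted p under 0.05, so the table was selected, and its calls are not independent of that selection. The contrast of the deposited log2 fold change is not named. Its sign was opposite to that of Tau-S199E minus Tau-WT in all 1676 genes (0 had the same sign) and equal to the sign of the interaction of both changes in all 1676. The directions below against Tau-WT therefore restate that sign.

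A few libraries lay apart. The SD over the table's genes was 1.67 in Tau-S199E library 12, against 0.83 and 0.77 in libraries 10 and 11. Library 12 had the most extreme value of all 12 on the Tau-S199E side in 26 of the 30 genes (86.7%, against 77.1% of the table). Tau-K174Q-S199E was split. Library 16 lay on the Tau-WT side of 0 in all 30 genes (against 95.2% of the table), library 17 in 24 (80.0%, against 84.2% of the table), and library 18 on the Tau-S199E side in 24 (80.0%, against 84.7% of the table). Tau-WT library 1 was the most extreme on the Tau-WT side in 8 genes (26.7%, against 24.2% of the table), and library 16 in 9 (30.0%, against 24.9%). Differences without library 1 or 12 are given beside some of the genes in which those libraries stood out. Among the others, the Tau-S199E difference from Tau-WT in TAF5L was 1.62 SD units without library 1, against 2.13 with all libraries. Without library 12 it was 1.80 in TAF9, -1.82 in SMARCD2 and 1.41 in CHD8, against 2.21, -2.31 and 1.99 with all libraries. None of 13 adrenergic neuroblastoma markers was in the table, so the cell type could not be checked against them. Of 16 mesenchymal markers, 3 were listed, CD44, S100A6 and SNAI2, and all 3 rose with Tau-S199E against Tau-WT. Their mean over the 3 genes lay between 0.64 and 1.83 in Tau-S199E, 0.28 and 0.49 in Tau-K174Q, -0.999 and 0.67 in Tau-K174Q-S199E, and -1.32 and -0.76 in Tau-WT libraries, and their part in the results was not tested. In bulk RNA, fewer cells of a type and less RNA per cell cannot be told apart.

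With Tau-S199E, 17 of the 30 genes fell and 10 rose against Tau-WT. In the whole table, 41.8% of genes fell and 48.3% rose, so the 30 leaned toward lower values where the table leaned slightly toward higher ones. No test of that lean was made. The median difference was -1.71 SD units over the 30 genes and 1.41 over the table, while the median size of the difference was 1.997 and 1.991. The SMARC genes, CHD3, CHD4, INO80B, MED24, SSRP1, BRD7 and BRD9 were lower, whereas PHF5A, PHF13, PHF10, TAF9, TAF5L and the architectural genes HMGN1, HMGB1 and HMGA1 were higher. BRD2, CHD2 and HMGN5 were lower but did not pass, with limma adjusted p-values of 0.0733, 0.110 and 0.0761. These 3 passed with moderated variance (limma adjusted p = 0.0266, 0.0288 and 0.00655) and with library medians subtracted (limma adjusted p = 0.0352, 0.0496 and 0.0371). Tau-S199E and Tau-WT libraries did not overlap in 29 of 30 genes, against 94.2% of the table, and HMGN5 was the exception.

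**Figure D1:**
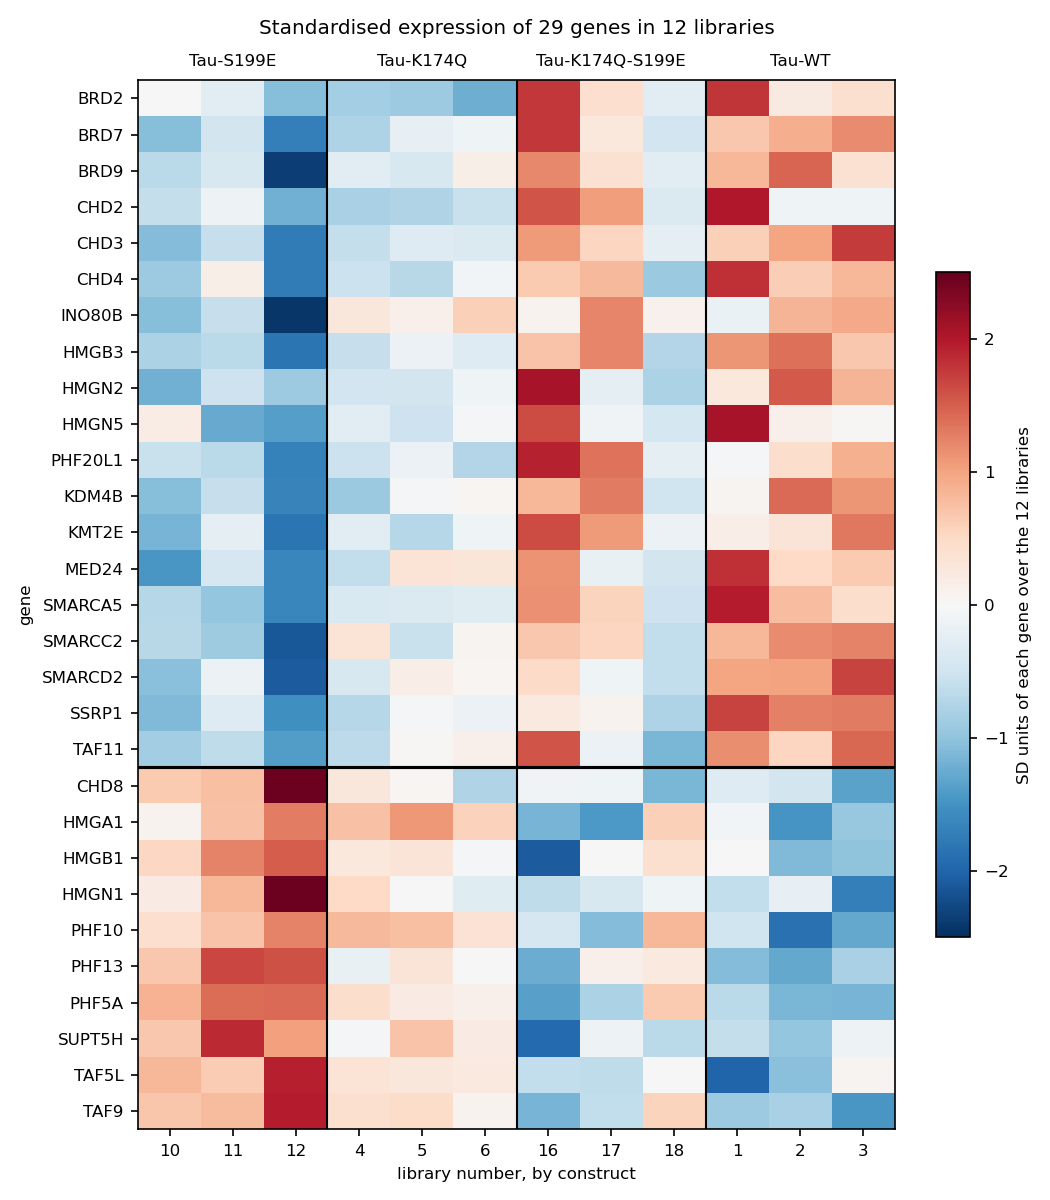
Standardised expression (SD units, colour) of 29 chromatin and Mediator genes (down the page) in each of the 12 libraries (across, grouped by construct with Tau-WT last). Library 12 of Tau-S199E holds most of the strongest colours, and library 18 of Tau-K174Q-S199E is on the other side of 0 from both libraries 16 and 17 in 18 genes.

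Among the factors that contact the transcription machinery, MED24, a subunit of the Mediator tail (chr17:40019097-40061215 on GRCh38), was lower with Tau-S199E. MED24 had -1.45, -0.42 and -1.63 in Tau-S199E, -0.61, 0.34 and 0.30 in Tau-K174Q, 1.13, -0.18 and -0.46 in Tau-K174Q-S199E and 1.82, 0.49 and 0.66 in Tau-WT. All 3 Tau-S199E libraries lay below all 3 Tau-WT libraries, and library 1 was the highest. MED24 fell by 2.16 SD units with Tau-S199E against Tau-WT (SE 0.57, limma adjusted p = 0.0134), and by 1.74 SD units without library 1 (limma adjusted p = 0.0365). TAF9, a histone-fold subunit shared by TFIID and SAGA (chr5:69364743-69370013), went the other way. TAF9 had 0.70, 0.79 and 1.96 in Tau-S199E, 0.40, 0.46 and 0.095 in Tau-K174Q, -1.16, -0.62 and 0.56 in Tau-K174Q-S199E and -0.91, -0.82 and -1.45 in Tau-WT. The order of the constructs was the same as for MED24 with the sign turned, and TAF9 rose by 2.21 SD units with Tau-S199E against Tau-WT (SE 0.49, limma adjusted p = 0.0102). TAF5L, the TAF5 relative that belongs to SAGA (chr1:229593111-229626047), was also higher. TAF5L had 0.82, 0.63 and 1.94 in Tau-S199E, 0.34, 0.27 and 0.24 in Tau-K174Q, -0.61, -0.64 and -0.018 in Tau-K174Q-S199E and -2.01, -1.04 and 0.062 in Tau-WT. Tau-WT library 3, at 0.062, lay close to the Tau-K174Q libraries, yet TAF5L rose by 2.13 SD units with Tau-S199E against Tau-WT (SE 0.53, limma adjusted p = 0.0119). TAF11, a TFIID subunit that pairs with TAF13, fell by 2.01 SD units (SE 0.64, limma adjusted p = 0.0210), so the TAF genes did not share a direction.

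SWI/SNF and ISWI subunits of the SMARC family were lower with Tau-S199E in all 3 cases. SMARCA5, the ISWI ATPase also called SNF2H (chr4:143513463-143557486), had the second smallest deposited adjusted p of the 30 genes. SMARCA5 had -0.72, -0.97 and -1.63 in Tau-S199E, -0.38, -0.35 and -0.29 in Tau-K174Q, 1.15, 0.55 and -0.52 in Tau-K174Q-S199E and 1.96, 0.78 and 0.43 in Tau-WT. Every Tau-S199E library lay below every other library, and library 1 was high within Tau-WT. SMARCA5 fell by 2.16 SD units with Tau-S199E against Tau-WT (SE 0.51, limma adjusted p = 0.0108), and the difference was -1.71 without library 1 (limma adjusted p = 0.0243). SMARCC2, the core scaffold subunit BAF170 (chr12:56162983-56189567), gave close Tau-WT values. SMARCC2 had -0.69, -0.90 and -2.13 in Tau-S199E, 0.34, -0.55 and 0.066 in Tau-K174Q, 0.67, 0.54 and -0.62 in Tau-K174Q-S199E and 0.83, 1.19 and 1.24 in Tau-WT. Its mean was -1.24 ± 0.78 in Tau-S199E and 1.09 ± 0.22 in Tau-WT (SD, n = 3 each), with library 12 lowest by more than 1 SD unit. SMARCC2 fell by 2.32 SD units with Tau-S199E against Tau-WT (SE 0.48, limma adjusted p = 0.01002), and the difference was -1.88 without library 12 (limma adjusted p = 0.0286). SMARCD2, an accessory subunit of the BAF60 group (chr17:63832081-63843065), was lower as well. SMARCD2 had -1.04, -0.15 and -2.07 in Tau-S199E, -0.39, 0.16 and 0.047 in Tau-K174Q, 0.49, -0.099 and -0.62 in Tau-K174Q-S199E and 0.99, 0.996 and 1.68 in Tau-WT. SMARCD2 fell by 2.31 SD units with Tau-S199E against Tau-WT (SE 0.50, limma adjusted p = 0.01002), and in both SMARCC2 and SMARCD2 no Tau-K174Q-S199E library reached the lowest Tau-WT library.

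The subunits that define SWI/SNF subtypes did not move together. BRD9, a bromodomain subunit of non-canonical BAF (chr5:850291-892824), and BRD7, a bromodomain subunit of PBAF (chr16:50313487-50368934), were lower with Tau-S199E, and PHF10, a PHD-finger subunit of PBAF (chr6:169703905-169725566), was higher. BRD9 had -0.68, -0.40 and -2.35 in Tau-S199E, -0.27, -0.40 and 0.14 in Tau-K174Q, 1.195, 0.38 and -0.27 in Tau-K174Q-S199E and 0.83, 1.45 and 0.39 in Tau-WT. Library 12 was far below the rest in BRD9. BRD7 had -1.06, -0.45 and -1.71 in Tau-S199E, -0.78, -0.20 and -0.10 in Tau-K174Q, 1.77, 0.26 and -0.48 in Tau-K174Q-S199E and 0.67, 0.90 and 1.18 in Tau-WT. BRD9 fell by 2.04 SD units with Tau-S199E against Tau-WT (SE 0.58, limma adjusted p = 0.0158), and the difference was -1.43 without library 12 (limma adjusted p = 0.0440). BRD7 fell by 1.99 SD units with Tau-S199E against Tau-WT (SE 0.56, limma adjusted p = 0.0157), and without library 12 its call was lost. PHF10 had 0.41, 0.71 and 1.24 in Tau-S199E, 0.82, 0.76 and 0.37 in Tau-K174Q, -0.42, -1.08 and 0.84 in Tau-K174Q-S199E and -0.51, -1.86 and -1.29 in Tau-WT. Tau-K174Q and Tau-S199E libraries of PHF10 overlapped, and library 18 stood with them. PHF10 rose by 2.01 SD units with Tau-S199E against Tau-WT (SE 0.52, limma adjusted p = 0.0129). Thus 2 subunits of the same PBAF complex, BRD7 and PHF10, had opposite signs. An annotated gene on the other strand lies over the 3′ end of both, ADCY7 for BRD7 and C6orf120 for PHF10, and the strand setting of the counting is not given in the sources used here.

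CHD3, an ATPase of the NuRD complex (chr17:7884806-7912760), had the largest deposited change of the 30 genes, which the authors' deposited table gives as a log2 fold change of 2.05 (adjusted p 1.23e-05). CHD3 had -1.08, -0.58 and -1.75 in Tau-S199E, -0.60, -0.32 and -0.35 in Tau-K174Q, 1.06, 0.53 and -0.25 in Tau-K174Q-S199E and 0.60, 0.99 and 1.75 in Tau-WT. All Tau-S199E libraries were below all libraries of the other constructs except Tau-K174Q library 4, which lay just below library 11. CHD3 fell by 2.25 SD units with Tau-S199E against Tau-WT (SE 0.44, limma adjusted p = 0.00981). CHD4, its NuRD relative, fell by 1.92 SD units (SE 0.62, limma adjusted p = 0.0227), and the call was lost without library 1 (adjusted p = 0.0680) and without library 12 (adjusted p = 0.0773). CHD2, a remodeller linked to histone H3.3 deposition, differed by -1.23 SD units and did not pass. Without library 1, whose value was 1.99, the CHD2 difference was -0.53. CHD8, which binds β-catenin, was the only CHD gene of the table that rose, by 1.99 SD units (SE 0.57, limma adjusted p = 0.0162).

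INO80B is a subunit of the INO80 remodeller (chr2:74455023-74457960). Its Tau-K174Q libraries overlapped those of Tau-WT, unlike in the SMARC genes, CHD2, CHD3 and CHD4. CHD8 shared this overlap, with Tau-K174Q between -0.75 and 0.28 and Tau-WT between -1.33 and -0.31. INO80B had -1.06, -0.58 and -2.44 in Tau-S199E, 0.28, 0.13 and 0.60 in Tau-K174Q, 0.094, 1.21 and 0.11 in Tau-K174Q-S199E and -0.17, 0.86 and 0.95 in Tau-WT. Tau-S199E alone was low, and the other 3 constructs overlapped. INO80B fell by 1.91 SD units with Tau-S199E against Tau-WT (SE 0.54, limma adjusted p = 0.0160), and the difference was -1.37 without library 12 (limma adjusted p = 0.0478). The read-through row INO80B-WBP1, whose annotated span lies over the 3′ end of INO80B, went the other way. INO80B-WBP1 had 1.64, 1.02 and 2.16 in Tau-S199E libraries and between -0.69 and -0.41 in the other libraries. It rose by 2.06 SD units against Tau-WT (SE 0.24, limma adjusted p = 0.00677), and the authors' deposited table gives it a log2 fold change of -7.64. How reads were divided between these overlapping rows is not given in the sources used here, so the INO80B value is uncertain.

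The readers and modifiers of histone marks were mixed. BRD2, a BET protein that binds acetylated histones (chr6:32968660-32981505), was the gene in which Tau-K174Q went furthest past Tau-S199E. BRD2 had 0.013, -0.28 and -1.07 in Tau-S199E, -0.85, -0.91 and -1.23 in Tau-K174Q, 1.76, 0.42 and -0.27 in Tau-K174Q-S199E and 1.78, 0.23 and 0.41 in Tau-WT. The lowest values of BRD2 were those of Tau-K174Q library 6 and Tau-S199E library 12, and the highest those of libraries 1 and 16. Its Tau-S199E difference of -1.25 SD units did not pass (SE 0.60, limma adjusted p = 0.0733) and was -0.76 without library 1. PHF13, a reader of methylated histone H3 (chr1:6613685-6624033), was higher. PHF13 had 0.68, 1.66 and 1.59 in Tau-S199E, -0.19, 0.32 and -0.015 in Tau-K174Q, -1.24, 0.12 and 0.25 in Tau-K174Q-S199E and -1.09, -1.28 and -0.81 in Tau-WT. Its Tau-S199E libraries did not overlap those of any other construct, and PHF13 rose by 2.37 SD units with Tau-S199E against Tau-WT (SE 0.43, limma adjusted p = 0.00968). PHF5A, the splicing subunit (chr22:41459717-41468725), followed the same order. PHF5A had 0.87, 1.40 and 1.43 in Tau-S199E, 0.45, 0.20 and 0.13 in Tau-K174Q, -1.35, -0.80 and 0.65 in Tau-K174Q-S199E and -0.66, -1.15 and -1.16 in Tau-WT. PHF5A rose by 2.22 SD units with Tau-S199E against Tau-WT (SE 0.46, limma adjusted p = 0.01002). PHF20L1, a Tudor-domain reader of methylated lysines, fell by 1.40 SD units (SE 0.57, limma adjusted p = 0.0444), a call lost in every fit that left out a Tau-S199E or Tau-WT library.

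Of the enzymes, KDM4B, a demethylase of histone H3 lysines (chr19:4969113-5153595), was lower with Tau-S199E. KDM4B had -1.07, -0.58 and -1.67 in Tau-S199E, -0.92, -0.042 and 0.051 in Tau-K174Q, 0.84, 1.30 and -0.49 in Tau-K174Q-S199E and 0.062, 1.42 and 1.10 in Tau-WT. Tau-WT library 1 was the lowest of its group and lay near Tau-K174Q libraries 5 and 6. KDM4B fell by 1.97 SD units with Tau-S199E against Tau-WT (SE 0.57, limma adjusted p = 0.0166), a call lost without library 12. KMT2E, a SET-domain protein of the MLL family whose own methyltransferase activity is not established (chr7:105014179-105114361), was lower too. KMT2E had -1.15, -0.24 and -1.83 in Tau-S199E, -0.29, -0.72 and -0.12 in Tau-K174Q, 1.62, 1.06 and -0.15 in Tau-K174Q-S199E and 0.17, 0.32 and 1.32 in Tau-WT. Libraries 16 and 17 of KMT2E lay above the lower 2 Tau-WT libraries. KMT2E fell by 1.68 SD units with Tau-S199E against Tau-WT (SE 0.57, limma adjusted p = 0.0257), and SRPK2 on the other strand lies over its 3′ end.

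SSRP1, the HMG-box subunit of the FACT histone chaperone (chr11:57325985-57335877), gave the smallest limma adjusted p of the 30 genes together with PHF13. SSRP1 had -1.10, -0.32 and -1.53 in Tau-S199E, -0.70, -0.021 and -0.16 in Tau-K174Q, 0.25, 0.087 and -0.77 in Tau-K174Q-S199E and 1.70, 1.26 and 1.30 in Tau-WT. The 3 Tau-WT libraries lay above all others, and the 3 mutant constructs sat below them, Tau-S199E lowest. SSRP1 fell by 2.40 SD units with Tau-S199E against Tau-WT (SE 0.38, limma adjusted p = 0.00968). SUPT5H, the large subunit of DSIF, which controls pausing and elongation by RNA polymerase II, rose by 1.74 SD units (SE 0.51, limma adjusted p = 0.0170), and by 1.196 with library medians subtracted, where the call was lost (limma adjusted p = 0.0667). The fall of SSRP1 and the rise of SUPT5H gave the 2 elongation genes opposite signs.

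Of the 6 high mobility group genes, 3 rose, 2 fell and 1 did not pass. HMGB3, a relative of HMGB1 with paired HMG boxes (chrX:150980509-150990775), was lower. HMGB3 had -0.80, -0.66 and -1.84 in Tau-S199E, -0.58, -0.16 and -0.32 in Tau-K174Q, 0.71, 1.21 and -0.73 in Tau-K174Q-S199E and 1.11, 1.38 and 0.68 in Tau-WT. HMGB3 fell by 2.15 SD units with Tau-S199E against Tau-WT (SE 0.52, limma adjusted p = 0.0109), with all Tau-S199E values below all Tau-WT values. The paralogues whose start regions are printed above are shown next in every library, a choice made after their values were seen. HMGB1 had 0.52, 1.24 and 1.51 in Tau-S199E, 0.27, 0.33 and -0.057 in Tau-K174Q, -2.09, -0.0004 and 0.40 in Tau-K174Q-S199E and -0.0057, -1.10 and -1.003 in Tau-WT. Library 16 was the lowest HMGB1 value, below every Tau-WT library. HMGB1 rose by 1.79 SD units with Tau-S199E against Tau-WT (SE 0.64, limma adjusted p = 0.0300). HMGN1 had 0.20, 0.82 and 2.45 in Tau-S199E, 0.50, -0.017 and -0.30 in Tau-K174Q, -0.63, -0.39 and -0.11 in Tau-K174Q-S199E and -0.61, -0.20 and -1.72 in Tau-WT. Library 12 was highest and library 3 lowest in HMGN1, a nucleosome-binding protein that counteracts compaction. HMGN1 rose by 2.001 SD units with Tau-S199E against Tau-WT (SE 0.61, limma adjusted p = 0.0185), and by 1.35 SD units without library 12 (limma adjusted p = 0.0498). HMGN2 had -1.19, -0.52 and -0.91 in Tau-S199E, -0.49, -0.47 and -0.10 in Tau-K174Q, 2.06, -0.22 and -0.79 in Tau-K174Q-S199E and 0.26, 1.53 and 0.84 in Tau-WT. HMGN2, which also binds nucleosomes, had its highest value in library 16. HMGN2 fell by 1.75 SD units with Tau-S199E against Tau-WT (SE 0.69, limma adjusted p = 0.0401). HMGA1, an AT-hook protein, rose by 1.52 SD units (SE 0.60, limma adjusted p = 0.0397), and HMGN5 differed by -1.55 (SE 0.75, limma adjusted p = 0.0761) and by -0.89 without library 1. With library medians subtracted, which lowers each of these differences by 0.54 SD units, HMGA1 was 0.98 (limma adjusted p = 0.0932) and HMGB1 1.25 (limma adjusted p = 0.0735), and neither passed. HMGA1, HMGB1 and HMGN2 also lost their calls when Tau-WT library 2 or 3 or Tau-S199E library 11 or 12 was left out alone. HMGN1 lost its call without library 3. HMGA1 and HMGN2 lost theirs without Tau-K174Q library 4, 5 or 6 as well, and HMGN2 without Tau-S199E library 10.

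Several of these genes have many near-identical copies, and their values are uncertain where reads could be divided among them. GENCODE 29 names 48 pseudogenes for HMGB1, 36 for HMGN2, 31 for HMGN1, 29 for HMGB3 and 7 for HMGA1. The pseudogene HMGB1P5 is itself in the table and went against HMGB1. HMGB1P5 fell by 2.22 SD units with Tau-S199E against Tau-WT (SE 0.52, limma adjusted p = 0.0104), and the authors' deposited table gives it a log2 fold change of 1.35. Outside this family, BRD7 has 5 named pseudogenes, TAF9 has 3 and BRD9 has 2. A gene on the same strand lies over the last 500 bases of BRD9, CHD4, INO80B, SMARCC2 and TAF9. A gene on the opposite strand lies over those of BRD7, KMT2E, PHF10, SMARCC2, SSRP1 and TAF11.

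**Figure D2:**
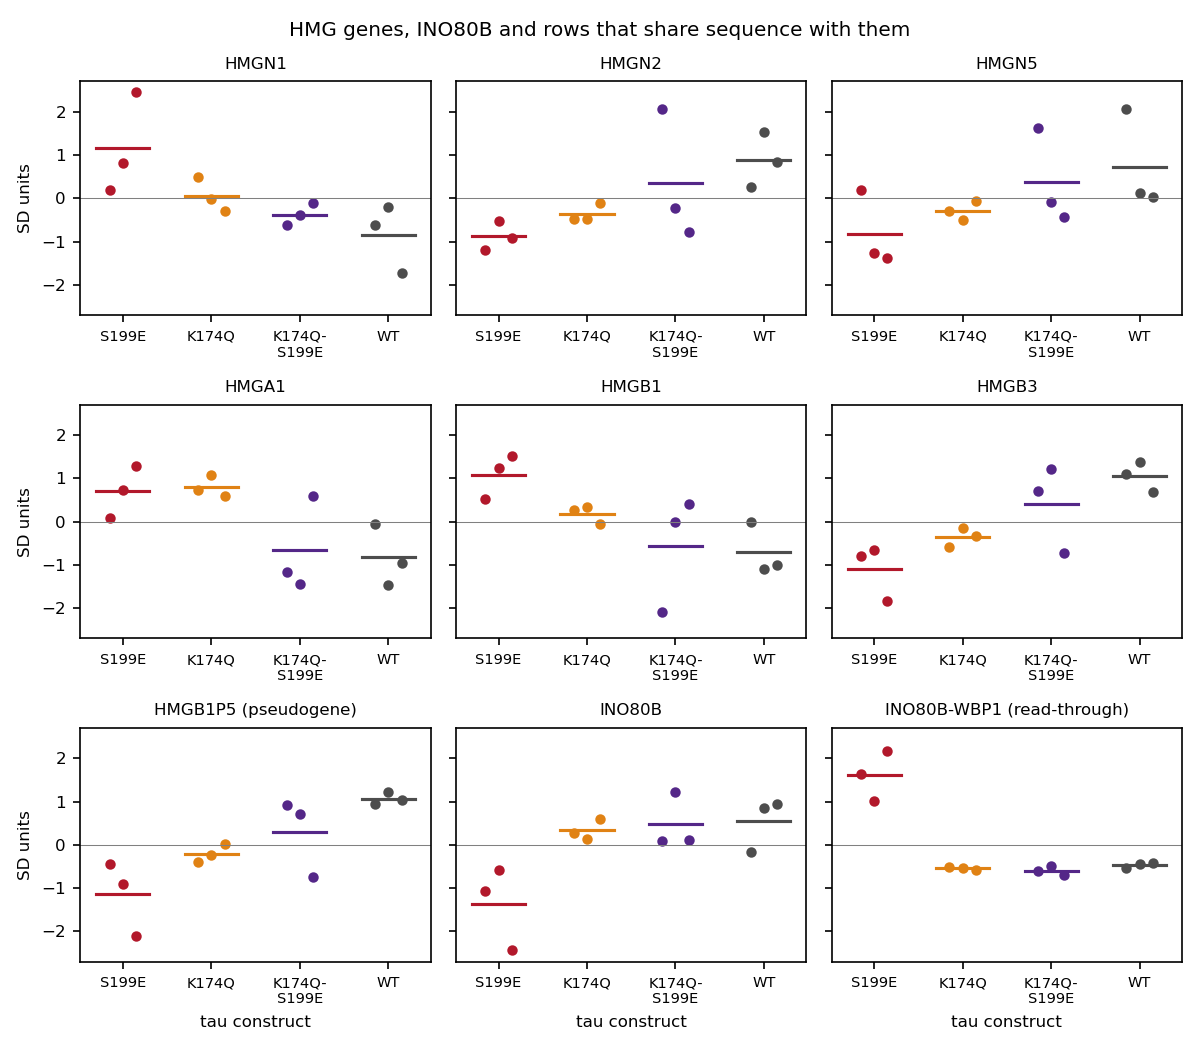
Standardised expression (SD units) of the 6 high mobility group genes, the pseudogene HMGB1P5, INO80B and the read-through INO80B-WBP1 in each library, by construct with Tau-WT last. Points are libraries and horizontal lines are means of 3. HMGA1, HMGB1 and HMGN1 were higher in Tau-S199E than in Tau-WT, HMGB3 and HMGN2 were lower, and HMGB1P5 and INO80B-WBP1 went against HMGB1 and INO80B.

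The number of calls with Tau-S199E changed with the libraries and the variance used, in the 30 genes and in the table alike. Without Tau-S199E library 12, 17 of the 30 genes passed, against 49.7% of the table. Without Tau-WT library 2 the number was 20, against 63.0% of the table, and without Tau-WT library 3 it was 19, against 71.9%. Without libraries 12 and 18 together, 24 passed, against 79.4% of the table. With only Tau-S199E and Tau-WT libraries in the fit, 17 passed, against 72.0% of the table. The calls lost in that fit included those of BRD9, CHD4, CHD8, HMGA1, HMGN1, INO80B, KMT2E, PHF20L1 and TAF5L. With library medians subtracted 27 passed, against 81.7% of the table, and with limma's moderated variance 30, against 98.4%. The 10 calls lost without library 12 included those of BRD7, CHD4, HMGA1, HMGB1, HMGN2, KDM4B, KMT2E, PHF20L1 and TAF11. All of these differences were smaller without library 12. The change was from -1.75 to -1.73 SD units in HMGN2, -2.01 to -1.79 in TAF11 and 1.79 to 1.58 in HMGB1. It was from -1.99 to -1.67 in BRD7, -1.97 to -1.69 in KDM4B and 1.52 to 1.23 in HMGA1. In CHD4 it was from -1.92 to -1.47, in KMT2E from -1.68 to -1.30 and in PHF20L1 from -1.40 to -1.04. All 30 differences kept their sign.

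With Tau-K174Q, none of the 30 genes passed against Tau-WT, and none of the table did (0%). At an unadjusted p under 0.05, 14 of 30 differed, against 51.9% of the table. With limma's moderated variance 15 passed, against 59.9% of the table, and without Tau-K174Q-S199E library 18, which enters only the spread, 9 passed, against 40.3%. Those 9 were BRD2, CHD3, HMGA1, HMGB3, PHF10, PHF5A, SMARCA5, SSRP1 and TAF9. The call for Tau-K174Q therefore depends on how the spread of each gene is estimated.

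Tau-K174Q and Tau-WT libraries did not overlap in 25 of the 30 genes, against 80.7% of the table. The Tau-K174Q mean lay between those of Tau-S199E and Tau-WT in 27 genes (90%, against 84.4% of the table) and beyond Tau-S199E in BRD2, CHD2 and HMGA1. On a scale with Tau-S199E at 100 and Tau-WT at 0, the median position was 60.2%, with a median of 65.7% over the table. INO80B was lowest at 11.1% and BRD2 highest at 144%. SSRP1 had the difference with the largest t, -1.71 SD units (SE 0.38, limma adjusted p = 0.0660), and PHF10 the next, 1.87 (SE 0.52, limma adjusted p = 0.0660). INO80B, at -0.21, and CHD8, at 0.56, had small ones. In both, Tau-K174Q lay closer to Tau-WT than to Tau-S199E, at 11.1% and 28.2% on that scale. The same held less clearly in other genes, among them HMGN1, MED24, PHF13, SMARCC2, SUPT5H and HMGB1, at 45.0% to 49.4%.

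**Figure D3:**
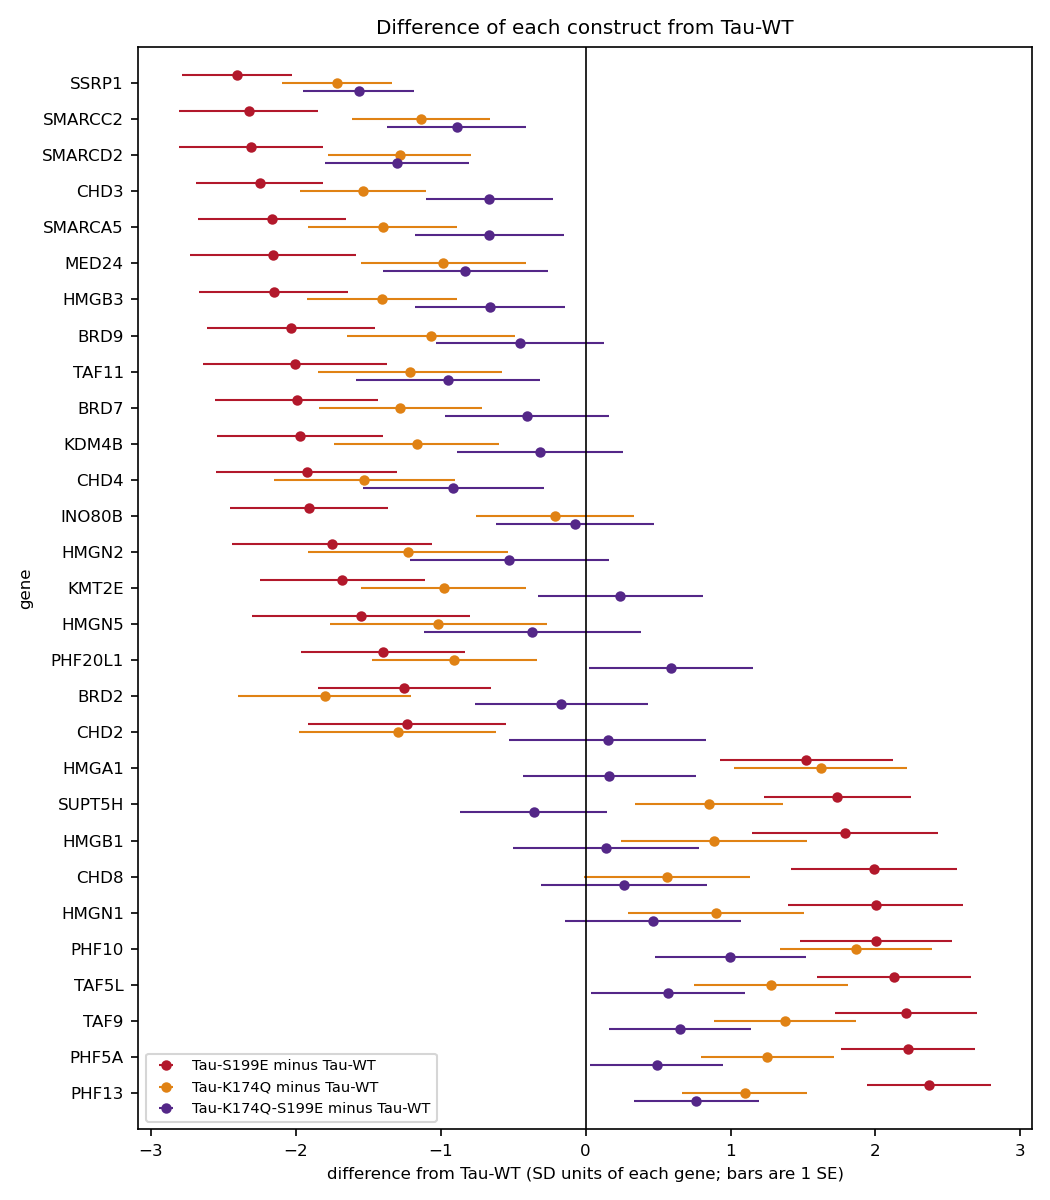
Difference from Tau-WT in SD units, with bars of 1 standard error from the linear model, for 29 genes with Tau-S199E, Tau-K174Q and Tau-K174Q-S199E. The Tau-S199E points lie farthest from 0 in 26 genes and the Tau-K174Q points in BRD2, CHD2 and HMGA1.

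With both changes in 1 protein, values lay nearer to Tau-WT. None of the 30 genes passed for Tau-K174Q-S199E against Tau-WT, nor did any of the table (0%), and 2 differed at an unadjusted p under 0.05, against 7.58% of the table. Those 2 were SSRP1, at -1.57 SD units (SE 0.38, limma adjusted p = 0.533), and SMARCD2, at -1.30 (SE 0.50, limma adjusted p = 0.533). Libraries of these constructs did not overlap in 3 genes, SSRP1, SMARCC2 and SMARCD2, against 11.6% of the table. The mean was nearer to Tau-WT than to Tau-S199E in 28 of 30 genes (93.3%, against 85.9% of the table), the exceptions being SSRP1 and SMARCD2. The median position was 23.4% on the same scale, with a median of 31.7% over the table. In 5 genes (16.7%, against 7.995% of the table), PHF20L1, SUPT5H, KMT2E and CHD2 among them, the mean lay beyond Tau-WT, furthest in PHF20L1 at -42.2%. A p that misses the threshold does not show that Tau-K174Q-S199E and Tau-WT were alike, since the standard errors ran from 0.38 to 0.75 SD units.

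**Figure D4:**
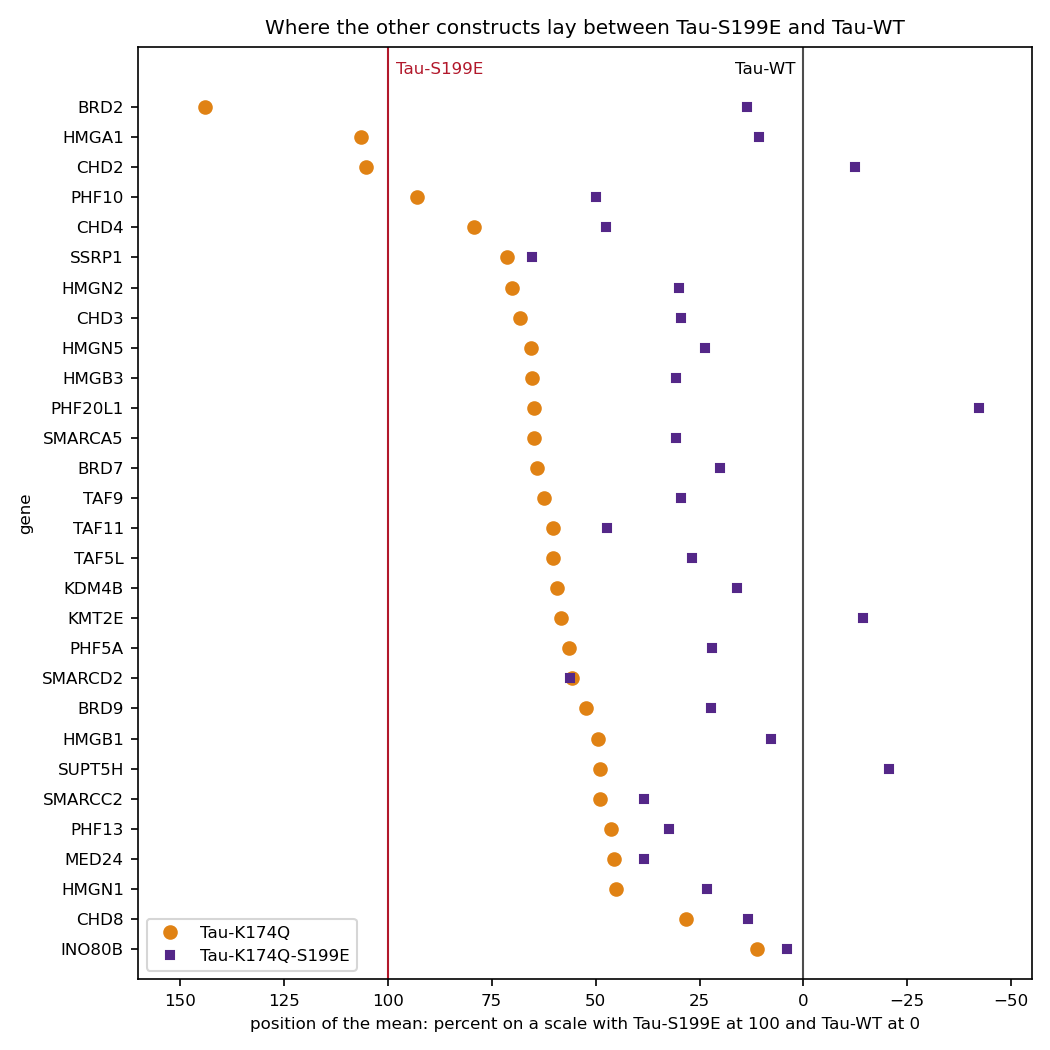
Position of the Tau-K174Q mean (circles) and the Tau-K174Q-S199E mean (squares) of 29 genes on a percent scale with Tau-S199E at 100, on the left, and Tau-WT at 0, on the right. The medians over all 30 genes are 60.2% for Tau-K174Q and 23.4% for Tau-K174Q-S199E.

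Against Tau-S199E, none of the 30 genes passed for Tau-K174Q-S199E, against 0.119% of the table. At an unadjusted p under 0.05, 20 of 30 differed, against 56.4% of the table. With moderated variance 23 passed, against 68.8% of the table, and without library 18 the number was 26, against 78.5%. Libraries did not overlap in 17 genes, against 43.4% of the table. SUPT5H had the difference with the largest t, -2.10 SD units (SE 0.51, limma adjusted p = 0.0644), with Tau-K174Q-S199E at -1.94, -0.13 and -0.68 and Tau-S199E at 0.67, 1.86 and 1.02. PHF5A followed with -1.73 (SE 0.46, limma adjusted p = 0.0644). SSRP1, at 0.84, had the smallest difference.

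Against Tau-K174Q, Tau-K174Q-S199E gave no call in the 30 genes or in the table (0%), with 4 of 30 at an unadjusted p under 0.05, against 8.23% of the table. They were BRD2, PHF20L1, HMGA1 and SUPT5H, at 1.63, 1.49, -1.46 and -1.21 SD units. Without library 18, 3 genes passed, against 8.47% of the table, and libraries did not overlap in 5, against 11.2%. Tau-K174Q against Tau-S199E gave 0 calls in the 30 genes, against 0.0597% of the table, and 4 at an unadjusted p under 0.05, against 16.1%. Those were INO80B, at 1.69 SD units, PHF13, at -1.27, CHD8, at -1.43, and SMARCC2, at 1.19, with limma adjusted p-values from 0.260. Libraries of Tau-K174Q and Tau-S199E did not overlap in 13 genes, against 36.2% of the table.

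The interaction asks whether K174Q acts alike with and without S199E. It passed in 29 of 30 genes and in 1625 of the 1676 of the table. It was positive in 19, against 45.5% of the table, and negative in 10, against 51.5%, and HMGN5 did not pass (limma adjusted p = 0.0723). CHD3 had the largest value, 3.12 SD units (SE 0.62, limma adjusted p = 0.0182). In CHD3, K174Q alone gave -1.53 against Tau-WT, while K174Q added to S199E gave 1.59 against Tau-S199E. PHF5A had the most negative value, -2.99 (SE 0.65, limma adjusted p = 0.0182), made of -1.73 with S199E and 1.25 without it. The sign of the deposited fold change matched this contrast throughout, so these calls are not independent of how the table was selected.

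The deposited changes of the 30 genes were smaller at the median than those of the table. In the authors' deposited table, the size of the log2 fold change ran from 0.73 to 2.05 over the 30 genes with a median of 1.11, against a median of 1.36 and a maximum of 11.49 over all genes. The sign was positive, which goes with lower values in Tau-S199E than in Tau-WT, for 20 of 30 genes (66.7%, against 47.1% of the table) in the authors' deposited table. After CHD3, the authors' deposited table ranks highest SMARCA5, 1.67, and MED24, 1.61, and lowest PHF13, -1.80, and TAF5L, -1.74. Of the authors' clusters, cluster 1 held 15 of the 30 genes (50%, against 31.9% of the table), cluster 2 held 5 (16.7%, against 15.2%), cluster 3 held 2 (6.67%, against 21.1%) and cluster 4 held 8 (26.7%, against 31.8%).

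**Figure D5:**
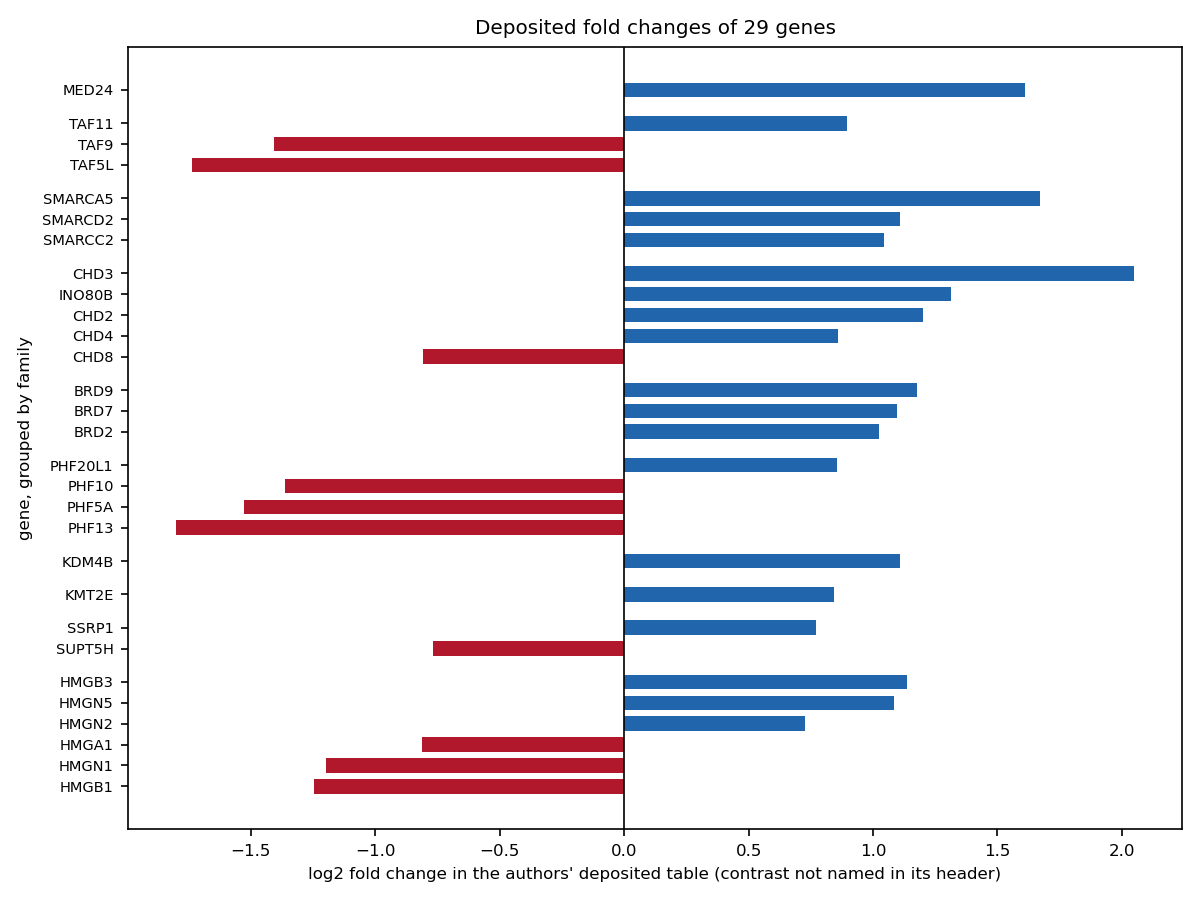
The authors' deposited log2 fold change (bars, from 0) of 29 genes, grouped by family. It is positive for 19 genes, with CHD3 highest at 2.05, and negative for 10, with PHF13 lowest at -1.80, and its contrast is not named.

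The genes were then averaged by the sign of their Tau-S199E difference, which fixes the order of Tau-S199E and Tau-WT. The mean of the 20 genes with lower values in Tau-S199E was -1.02 ± 0.61 in Tau-S199E, -0.29 ± 0.16 in Tau-K174Q, 0.41 ± 0.83 in Tau-K174Q-S199E and 0.89 ± 0.07 in Tau-WT (SD, n = 3 each). That of the other 10 was 1.10 ± 0.56 in Tau-S199E, 0.27 ± 0.20 in Tau-K174Q, -0.48 ± 0.60 in Tau-K174Q-S199E and -0.90 ± 0.19 in Tau-WT. Split in the same way, the table gave -0.99, -0.32, 0.38 and 0.93 for its lower genes and 0.96, 0.39, -0.35 and -0.99 for its higher ones, in the same order of constructs. The spread was widest in Tau-K174Q-S199E and Tau-S199E, the constructs of libraries 18 and 12. Outside the 30 genes, the patterns most like the first mean over 12 libraries were those of CDC37 (Pearson r = 0.98), SAR1A, BIVM, MTREX and LRRC58, and most like the second those of ACO1, DTYMK, PFKM, ODC1 and INTS9. These correlations are descriptive, since the table was selected and all genes share the same 12 libraries.

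Other genes of the same machinery, taken from 11 lists of 265 genes outside the rule, gave 50 genes that the table listed. With Tau-S199E against Tau-WT, 22 of them rose and 25 fell, where 48.3% of the table rose and 41.8% fell. CREBBP, which encodes the acetyltransferase CBP named in the series title, fell by 2.10 SD units (SE 0.55, limma adjusted p = 0.0130). SIRT6, the deacetylase of the title, was not in the table, and SIRT5 was the only one of 7 sirtuins listed. Of the kinase module that docks on Mediator, CCNC rose by 2.16 SD units and CDK19 fell by 1.72, and CDK8 was 1.49 higher with a limma adjusted p of 0.0583. Among Polycomb genes, EED, PHC2 and SCMH1 were listed of 23 and all 3 rose. Of 31 methyltransferases and partners, 10 were listed, 3 rose and 7 fell, with PSIP1 at -2.35. Elongation factors split evenly, with 4 up and 4 down of 38.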

How the data were processed

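RNA of 12 SH-SY5Y libraries, 3 for each of 4 tau constructs, was measured with a 3′ mRNA kit. GRCh38, RSEM 1.2.31, STAR 2.5.3a and DESeq2 are listed in the submitters' processing notes without a role or order. The authors deposited, for 1676 genes, a score per library that is standardised by gene (mean 0, SD 1), a log2 fold change and an adjusted p-value, per the file headers. Level, depth and fold size cannot be recovered from the scores, so no count model was used. Differences between constructs were estimated by gene with limma 3.58.1 in R 4.3.3, with ordinary residual variance over 12 libraries, two-sided, and Benjamini-Hochberg adjustment over all genes at 0.05. The fit was tested on simulated data of independent genes with equal spread, which cannot show how it behaves in a selected table of correlated genes. Alternatives were moderated variance, only the groups compared, library medians subtracted, ranks and leaving out each library, and, chosen after seeing the data, leaving out libraries 12 and 18, or 1, 12 and 18. Columns give construct and library number, so libraries are named Tau-S199E 10 to 12, Tau-K174Q 4 to 6, Tau-K174Q-S199E 16 to 18 and Tau-WT 1 to 3. Counts cover all 30 genes, but the values of 1 of them are not reported here. Values in every library are given for the others of 19 genes: the 12 with the smallest deposited adjusted p, the 2 largest fold changes of each sign, the smallest adjusted p of each family, and the 2 largest absolute t in Tau-K174Q against Tau-WT, Tau-K174Q-S199E against Tau-WT and Tau-K174Q against Tau-S199E. The genes and lists were chosen with earlier results of these data known.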

Additional observations from a re-analysis of the deposited data

Results flagged for a closer look

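In 29 of the 30 genes, the effect of K174Q with S199E present differed from its effect without it, by limma's test of that difference, as it did in 1625 of the 1676 genes of the table. The deposited fold change has the sign of this difference in all 1676 genes of a selected table, so these calls are not independent of that selection. The values below, given for 28 of them, are the effect with S199E (Tau-K174Q-S199E minus Tau-S199E) minus the effect without it (Tau-K174Q minus Tau-WT), in SD units. This quantity contains Tau-WT minus Tau-S199E, so its sign is not independent of the direction of Tau-S199E against Tau-WT.

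The difference was positive for genes that were lower in Tau-S199E than in Tau-WT: CHD3 3.12, HMGB3 2.90, SMARCA5 2.90, KMT2E 2.90, PHF20L1 2.89, BRD2 2.88, BRD7 2.87, KDM4B 2.82, CHD2 2.68 and BRD9 2.65. It was also positive for SMARCC2 2.57, SSRP1 2.55, CHD4 2.54, HMGN2 2.45, MED24 2.31, SMARCD2 2.29, TAF11 2.27 and INO80B 2.04. It was negative for genes that were higher in Tau-S199E: PHF5A -2.99, HMGA1 -2.98, SUPT5H -2.95, TAF9 -2.94, PHF10 -2.87, TAF5L -2.84, PHF13 -2.7004, HMGB1 -2.54, HMGN1 -2.44 and CHD8 -2.28. Library 18 lay on the other side of 0 from both libraries 16 and 17 in 18 of the 30 genes (60.0%, against 69.7% of the table). In HMGN2, HMGN5, PHF13, MED24, SMARCD2 and TAF11, library 16 was instead the one on the other side of 0 from libraries 17 and 18. Leaving out 1 library at a time gave between 20 and 29 genes that passed, and between 1273 and 1628 in the table.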

How the results depend on the processing

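No paired analysis was possible because the columns carry library numbers and not the replicate numbers of the labels. Single-gene differences were refitted for Tau-S199E and Tau-K174Q against Tau-WT and for the interactions that passed. They were also refitted for SSRP1 and SMARCD2 in Tau-K174Q-S199E against Tau-WT, and for INO80B and PHF13 in Tau-K174Q against Tau-S199E. None of these changed sign under any alternative tried. Of 1645 such values, 1443 stayed on the same side of the threshold, 126 were lost and 76 were gained. Other differences named for single genes were not refitted. Counts of genes that passed are followed by the count over the 1676 genes of the table. For Tau-S199E against Tau-WT, 27 passed (1509 of the table), 17 (1207) with only the groups compared, and between 17 and 28 (833 to 1572) when 1 library was left out. For Tau-K174Q against Tau-WT, 0 (0) passed, 15 (1004) with moderated variance, 13 (819) with only the groups compared, between 0 and 9 (0 to 675) when 1 library was left out, 15 (981) without libraries 12 and 18, and 14 (850) without 1, 12 and 18. For Tau-K174Q-S199E against Tau-S199E, 0 (2) passed, 23 (1153) with moderated variance, 12 (411) on ranks, between 0 and 26 (0 to 1315) when 1 library was left out, 14 (730) without libraries 12 and 18 and 15 (779) without 1, 12 and 18. For Tau-K174Q-S199E against Tau-K174Q, 0 (0) passed, between 0 and 3 (0 to 142) when 1 library was left out, 7 (451) without libraries 12 and 18 and 12 (513) without 1, 12 and 18. Tau-K174Q-S199E against Tau-WT gave 0 of the 30 genes throughout. The cause of these changes was not tested. Depth is unknown, 3 libraries a construct limit the precision, and a different normalization, filter or count model could not be applied to standardised values.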

Other observations

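Pairs of the 30 genes were compared among libraries of the same construct, with values close to those of the table. For the 235 pairs with the same Tau-S199E direction, the median Pearson r after each construct's mean was subtracted was 0.59, against 0.55 over all such pairs of the table, and ranged from -0.26 (INO80B and HMGN5) to 0.97 (HMGA1 and PHF10). For the 200 pairs of opposite direction, the median was -0.46, against -0.50 in the table, with a range from -0.90 (PHF10 and KDM4B) to 0.43 (INO80B and SUPT5H). These values describe genes that share the same libraries, in a selected table, and carry no p.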
